A study of Mus musculus with 14 samples.

Results

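A set of 7 genes used as markers of the interstitial progenitors of the fetal ovary, Pdgfra, Pdgfrb, Tcf21, Maf, Meis1, Meis2 and Nes, was followed on Affymetrix arrays of mouse fetal ovaries. All probe sets whose single gene symbol in the platform annotation is one of the 7 were taken, which gave 23 probe sets among 45037 other than controls, and 7 genes among 18193. Pdgfra and Nes had 3 probe sets each, Pdgfrb and Tcf21 had 2 each, Maf had 6, Meis1 had 3 and Meis2 had 4. Knockout ovaries came from embryos in which a tamoxifen-inducible Cre recombinase driven by WT1 (WT1-CreERT2) deleted floxed Coup-tfII, the gene with the symbol Nr2f2. Knockout arrays numbered 3 at E14.5 and 4 at E16.5, and control arrays likewise numbered 3 at E14.5 and 4 at E16.5. Dams of both genotypes received tamoxifen on E11.5 and on E12.5, each time 2 mg per 10 g of body weight. The strain was a mix of C57BL/6, Swiss Webster and B6129SF1/J. The labels do not say whether controls carried Cre or whether ovaries were pooled. The WT1 driver limits deletion to cells with WT1 activity around the time of tamoxifen and to their descendants.

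The interstitium of the fetal ovary is the mesenchyme around the cords of germ cells and pre-granulosa cells, and steroid-making theca cells later arise from it. COUP-TFII, an orphan nuclear receptor, is abundant in such mesenchyme. PDGFRA and PDGFRB are tyrosine kinase receptors that pair when platelet-derived growth factors bind them. TCF21 is a basic helix-loop-helix transcription factor of mesenchymal progenitors, MAF is a basic leucine zipper factor found in the interstitium of mouse fetal gonads, and MEIS1 and MEIS2 are homeodomain proteins of the TALE class that bind DNA with PBX and HOX partners. Nestin, the product of Nes, is an intermediate filament protein of progenitor cells that in mouse fetal gonads marks cells beside blood vessels. PDGFRB and nestin are also made by pericytes, so neither is specific to interstitial progenitors. The arrays measured whole ovaries, in which fewer cells of a type and less RNA per cell cannot be told apart.

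The promoters of the genes with a probe set that passed the test at E16.5 are shown first, because the targeted gene encodes a DNA-binding receptor. Each runs 5′ to 3′ on the gene's strand from 250 bases before to 50 bases after the start site and is taken from RefSeq (GRCm38.p6). Capitals mark a match to TGACAG, the core bound by MEIS proteins, or to AGGTCA, the half-site of nuclear receptors such as COUP-TFII, on either strand (CTGTCA and TGACCT). Pdgfra lies on the plus strand (chr5:75152001-75152300), Tcf21 on the minus strand (chr10:22820094-22820393) and Meis2 on the minus strand (chr2:116064570-116064869).
Pdgfra: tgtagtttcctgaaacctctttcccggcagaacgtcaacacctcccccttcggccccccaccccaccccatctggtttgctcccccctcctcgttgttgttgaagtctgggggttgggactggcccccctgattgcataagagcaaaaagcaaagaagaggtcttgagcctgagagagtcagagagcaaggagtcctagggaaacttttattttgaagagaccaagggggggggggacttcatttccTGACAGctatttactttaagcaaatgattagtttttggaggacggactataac
Tcf21: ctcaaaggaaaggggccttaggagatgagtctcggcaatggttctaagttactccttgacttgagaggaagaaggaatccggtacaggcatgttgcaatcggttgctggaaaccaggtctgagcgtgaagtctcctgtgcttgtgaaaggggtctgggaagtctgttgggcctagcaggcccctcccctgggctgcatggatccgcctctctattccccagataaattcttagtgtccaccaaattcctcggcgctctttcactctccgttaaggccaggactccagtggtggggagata
Meis2: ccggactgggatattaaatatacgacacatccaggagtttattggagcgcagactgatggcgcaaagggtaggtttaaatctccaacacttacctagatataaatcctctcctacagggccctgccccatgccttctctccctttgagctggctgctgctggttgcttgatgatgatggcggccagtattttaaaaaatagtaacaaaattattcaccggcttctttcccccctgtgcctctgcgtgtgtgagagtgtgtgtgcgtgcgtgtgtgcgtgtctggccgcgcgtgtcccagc
The Pdgfra window held 1 TGACAG, whose first base lies 3 bases before the start site, and the other windows held none. A promoter was found by symbol for 5 of the 7 genes, which adds Nes and Meis1. AGGTCA was absent from all 5 windows, and 16.3% of 32851 promoter windows of 300 bases held it. TGACAG was in 1 of the 5, against 19.2% of all windows. The E-box CANNTG, the kind of site that basic helix-loop-helix factors such as TCF21 bind, occurred in Pdgfra and Meis1 and in 72.3% of all windows. These are matches of letters, not measured binding.

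The tissue and the deletion were checked on the same arrays. Dazl, an RNA-binding protein of germ cells, had 9693 to 17801 in E14.5 knockouts, 16405 to 18706 in E14.5 controls, 2788 to 3681 in E16.5 knockouts and 2827 to 3517 in E16.5 controls. Foxl2, a transcription factor of pre-granulosa cells, had 1243 to 1684 in E16.5 knockouts and 2319 to 2672 in E16.5 controls. Nr2f2 itself had 6 probe sets. On 5 of them no E16.5 knockout reached the lowest control, and 3 passed as lower, with log2 changes of -2.57, -1.79 and -1.60 in limma over all probe sets. The brightest had 2462, 2261, 3359 and 2053 in E16.5 knockouts and 3819, 4950.3, 4309 and 4250.4 in controls (-0.79 ± 0.21; limma adjusted p = 0.116), and 1 was not lower (0.26 ± 0.39). No Nr2f2 probe set passed at E14.5 in limma. Of the E14.5 controls, replicate 1 stood apart: on the third-brightest Nr2f2 probe set the E14.5 knockouts had 34.6, 65.6 and 79.1 and the controls 19.3, 349.7 and 207. Its Gapdh 3′ minus 5′ log2 difference was -0.06, against -0.42 and -0.39 in the other E14.5 controls. Replicate 1 also had the lowest signal of the E14.5 controls on the brightest probe sets of Pdgfra, Pdgfrb, Tcf21, Maf, Meis1 and Nes, and the highest on that of Meis2. Values of the brightest probe sets are therefore also given without it where they moved by more than 1.5 times or a call changed. E16.5 knockout replicates 1 and 4 had the highest signals of the bioB hybridization control, at 10028 and 16405, whereas the remaining E16.5 arrays had 3806 to 5113. Signals below are linear MAS5 values, with a trimmed mean of 500 on each array, and log2 changes are of signal + 16.

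At E16.5, Pdgfra fell in the knockout on every probe set that measures it, while Pdgfrb showed no detectable change. Tcf21 had all knockout arrays below all controls on both its probe sets, of which the dimmer one passed. Meis2 had higher values in knockouts, and 1 of its 4 probe sets rose. Maf, Meis1 and Nes did not pass. With 1 probe set per gene, the brightest, 1 of the 7 genes passed in limma (Benjamini-Hochberg adjusted p under 0.05 over 12406 genes), against 1.42% of all genes tested (0.451% lower). Groups did not overlap for 2 genes, both lower in knockouts, and for 10.4% of all genes (4.22% lower). The median log2 change of the 7 genes was 0.071, and that of all genes was 0.053. With each probe set tested on its own, 21 of the 23 passed the filter on dim signals, and 5 of these 21 passed the test, 4 lower and 1 higher, against 0.918% of 27022 probe sets (0.381% lower and 0.537% higher). The knockout arrays lay all below the controls on 8 of the 21 and all above on 1, where 9.98% of all probe sets tested had groups that did not overlap (5.13% below and 4.85% above). The probe sets of one gene share their samples and are not independent. The 5 became 0 with the Gapdh 3′ minus 5′ difference of each array as a covariate and 0 without both knockout replicates 1 and 4, and 2 without knockout replicate 1 alone or without control replicate 2 or 3.

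**Figure D1:**
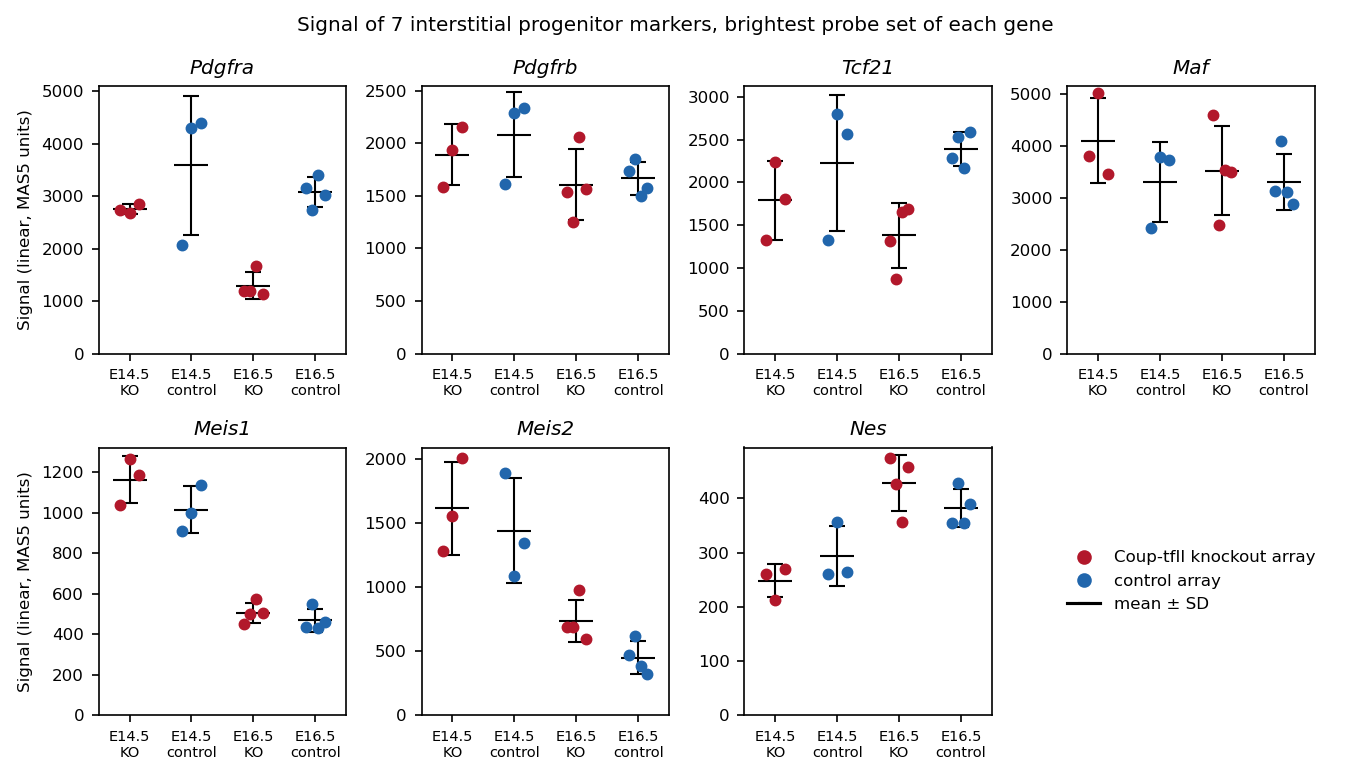
Signal (linear MAS5 units, vertical axis) of the brightest probe set of each gene on all 14 arrays, with knockout arrays in red beside the control arrays of the same stage in blue; bars give the mean ± SD. For Pdgfra the 4 E16.5 knockout arrays, at 1127 to 1669, lie below all E16.5 controls, at 2735 to 3409, whereas for Pdgfrb the 2 groups overlap.

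Pdgfra, the receptor that binds PDGF-A, PDGF-B and PDGF-C, was the member with the lowest adjusted p. On its brightest probe set (1421917_at) the E16.5 knockouts had signals of 1194, 1193, 1669 and 1127, and the controls had 3151, 2735, 3409 and 3019. All knockout arrays were below all controls, and the highest knockout, replicate 3, was still well under the lowest control. The mean was 1296 ± 251 in knockouts and 3079 ± 280.4 in controls (SD, n = 4 each), and Pdgfra fell with a log2 change of -1.25 ± 0.19 (SE; limma adjusted p = 0.00457), a 2.38-fold lower value. The second probe set (1421916_at) had 321, 345, 464 and 309.6 in E16.5 knockouts, against 908, 962, 992 and 916 in controls. The groups did not overlap there either, and the log2 change was -1.37 ± 0.20 (limma adjusted p = 0.0049 over probe sets). The dimmest (1438946_at) had 42.5, 90.6, 123 and 75.6 in knockouts and 149, 207, 250.05 and 188 in controls. On it too every knockout lay below every control, and its log2 change of -1.16 ± 0.23 passed (limma adjusted p = 0.0245). The 3 probe sets thus spanned 0.21 in log2 change, against a median span of 0.27 over the 6143 genes with at least 2 tested probe sets. Without both E16.5 knockout replicates 1 and 4 the log2 change of the brightest probe set was -1.11 ± 0.23 and the gene no longer passed (limma adjusted p = 0.0858).

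Pdgfrb, which binds PDGF-B and PDGF-D, gave E16.5 knockout signals of 1536, 1256, 2064 and 1565 on its brightest probe set (1436970_a_at), and control signals of 1740.5, 1852, 1498 and 1573. The highest and the lowest of the 8 arrays were both knockouts. The log2 change was -0.071 ± 0.15 (limma adjusted p = 0.841), with a 95% interval of -0.39 to 0.25. Its other probe set had 860.3, 759, 969.7 and 934 in E16.5 knockouts and 1070.2, 949, 829 and 904 in controls, again overlapping, with a log2 change of -0.089 ± 0.14 (95% interval -0.38 to 0.20). The receptors were also compared within each array, a comparison chosen after the values were seen. The log2 difference of Pdgfra minus Pdgfrb was lower by 1.18 ± 0.15 (SE) in E16.5 knockouts than in controls, on all 4 knockout arrays (exact two-sided permutation p = 0.0286, the smallest that 4 against 4 arrays allow). Adjusted over the 4 such comparisons made, p was 0.0571 (exact permutation test). With groups this small no lower adjusted value was possible, so the adjusted test could not pass and decides nothing. At E14.5 the same difference was -0.17 ± 0.22 (SE), with groups that overlapped (exact permutation p = 0.4, where the smallest possible was 0.1).

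Tcf21 had E16.5 knockout signals of 1321, 872, 1659.6 and 1685 on its brightest probe set (1417447_at), against control signals of 2281, 2530.4, 2175 and 2596. All knockouts lay below all controls, replicate 2 lowest. The log2 change was -0.83 ± 0.23 and did not pass (limma adjusted p = 0.0759). It passed without E14.5 control replicate 1 (limma adjusted p = 0.0367), which enters only through the shared estimate of spread, and with E16.5 arrays alone (limma adjusted p = 0.0481). The dimmer probe set (1458887_at) had 59.0, 41.5, 76.2 and 48.5 in E16.5 knockouts and 150.1, 129, 136 and 117 in controls. Its groups did not overlap, and its log2 change of -1.06 ± 0.22 passed (limma adjusted p = 0.0263). Of its 4 knockout signals, 3 were below 62.0, the level of the filter, where the added constant shrinks a change.

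Meis2 gave E16.5 knockout signals of 687, 684, 976 and 591 on its brightest probe set (1457632_s_at), and control signals of 470.4, 617, 382 and 322. Only the lowest knockout and the highest control crossed, and the log2 change of 0.71 ± 0.21 did not pass (limma adjusted p = 0.098). The second probe set (1417129_a_at) had 821, 737, 1217 and 703 in E16.5 knockouts, against 582, 482, 455 and 478 in controls. Here every knockout lay above every control, replicate 3 highest, and this probe set rose, with a log2 value higher by 0.75 ± 0.17 (limma adjusted p = 0.0385). The other 2 probe sets had log2 changes of 0.87 ± 0.32 and 0.39 ± 0.26 and did not pass. Meis1, the paralog, gave 453, 498, 571 and 504 in E16.5 knockouts and 434, 549, 429 and 461 in controls on its brightest probe set (1450992_a_at), groups that overlapped. Its log2 change was 0.11 ± 0.12 (limma adjusted p = 0.671; 95% interval -0.15 to 0.37). Its dimmest probe set (1459423_at) had 262, 299.6, 263 and 338 in E16.5 knockouts and 368, 415, 431 and 341 in controls, without overlap, but the log2 change of -0.40 ± 0.20 did not pass (limma adjusted p = 0.338). Within arrays, the log2 difference of Meis2 minus Meis1 was higher by 0.60 ± 0.19 (SE) in E16.5 knockouts, on all 4 knockout arrays (exact two-sided permutation p = 0.0286, and 0.0571 adjusted over the 4 comparisons). Both values are the smallest that these groups allow, so the adjusted test could not pass. In E14.5 knockouts that difference changed by -0.016 ± 0.33 (SE), with groups that overlapped.

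Maf was the gene whose probe sets differed most from each other at E16.5. The brightest (1456060_at) had 4595, 2480.4, 3531 and 3495 in knockouts and 3128, 4098, 3118 and 2886 in controls, with overlap of the groups and 0.071 ± 0.18 in log2 units (limma adjusted p = 0.871). The second (1437473_at) had 1598, 1475, 1724 and 1231 in E16.5 knockouts, against 1806, 1898, 2006 and 1876 in controls. There all knockouts lay below all controls, with a log2 change of -0.34 ± 0.14 that did not pass (limma adjusted p = 0.255). The fifth (1444073_at) had 167, 130.3, 166 and 118 in E16.5 knockouts and 264, 237, 247 and 248 in controls, again without overlap, and -0.73 ± 0.24 (limma adjusted p = 0.156). The fourth went the other way, at 0.50 ± 0.24 (limma adjusted p = 0.311). The 5 tested probe sets of Maf spanned 1.23 in log2 change, above the 0.613 that 90% of the 6143 genes with at least 2 probe sets stayed under. A span tends to widen with more probe sets, and those genes were not matched to Maf in their number. The sixth Maf probe set was below the filter and had 50.1 to 92.0 in E16.5 knockouts and 51.2 to 119 in controls. Nes had 475, 426, 357 and 457 in E16.5 knockouts and 354, 428, 355 and 390.1 in controls on its brightest probe set (1418289_at). These groups overlapped (0.16 ± 0.15 in log2 units; limma adjusted p = 0.596), and the second probe set had 0.24 ± 0.22. The third Nes probe set was below the filter, at 59.4 to 71.8 in E16.5 knockouts and 24.6 to 77.6 in controls.

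**Figure D2:**
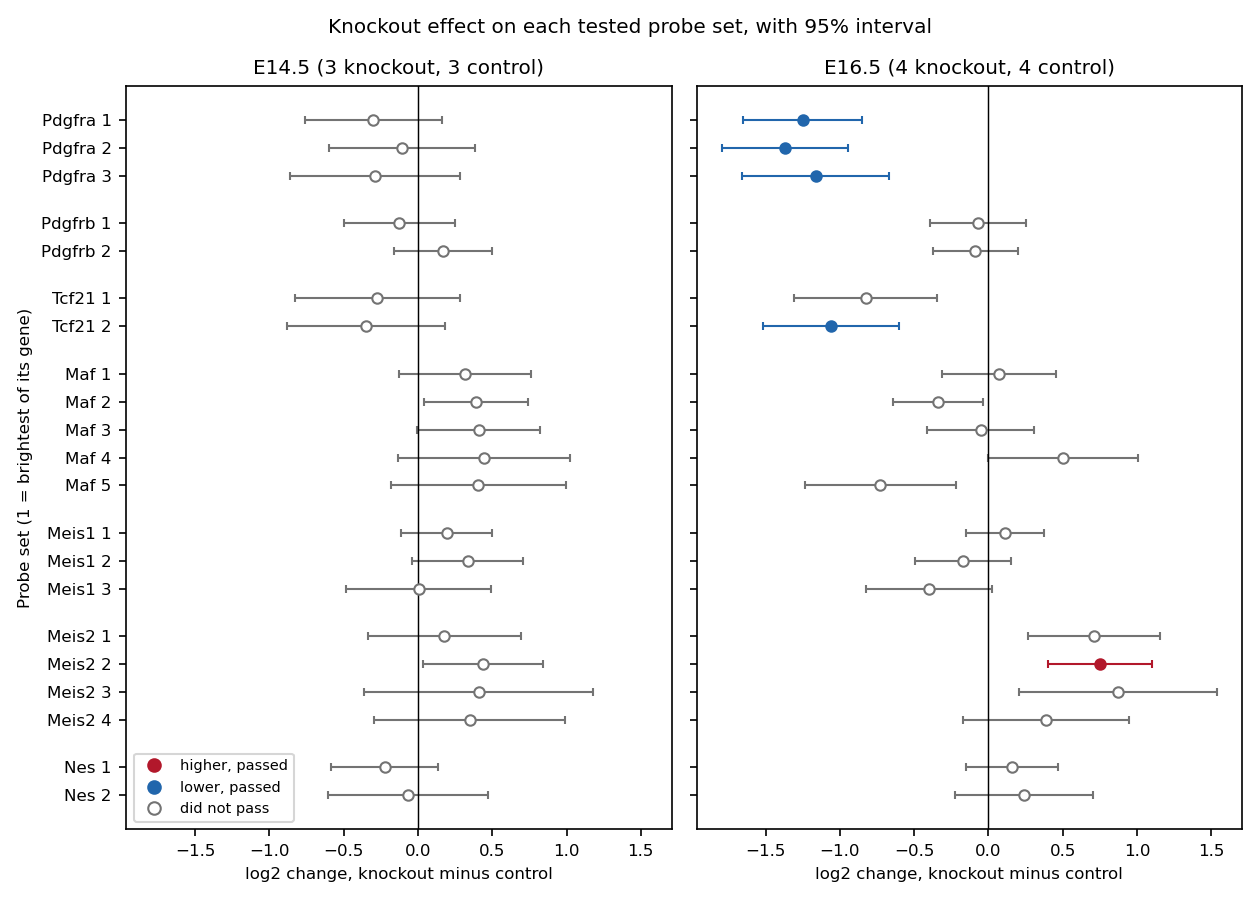
Log2 change (knockout minus control, horizontal axis) of each tested probe set at E14.5 on the left and at E16.5 on the right; points are estimates, bars are 95% intervals from limma, and filled points passed. At E16.5 the 3 Pdgfra probe sets lie between -1.37 and -1.16, the Tcf21 probe sets at -1.06 and -0.83, and the 4 Meis2 probe sets between 0.39 and 0.87, while at E14.5 no point is filled.

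At E14.5 none of the 7 genes passed in limma, none had an unadjusted p under 0.05, and no gene's brightest probe set separated the groups. Of all genes, 0.0403% passed and 12.7% had groups without overlap. Of the 21 probe sets, 0 passed and 2 had an unadjusted p under 0.05, and knockout arrays lay all above the controls on 3, against 0.0222% passing and 11.4% without overlap (6.5% above) among all probe sets. Pdgfra had 2733, 2672 and 2859 in E14.5 knockouts and 2062, 4299 and 4404 in controls. The 3 knockouts were close together and lay between control replicate 1 and the other controls, so the log2 change of -0.30 ± 0.22 (limma adjusted p = 0.733) became -0.66 ± 0.15 without that replicate (limma adjusted p = 0.14). Tcf21 had 1326, 2238 and 1804 in E14.5 knockouts and 1323, 2796 and 2566 in controls. The lowest control and the lowest knockout were nearly equal, and the log2 change of -0.27 ± 0.26 (limma adjusted p = 0.825) was -0.61 ± 0.24 without control replicate 1 (limma adjusted p = 0.536). Pdgfrb had 1588, 1933 and 2158 in E14.5 knockouts and 1615, 2291 and 2335 in controls, with a log2 change of -0.13 ± 0.18 and a 95% interval of -0.50 to 0.25. These groups overlapped, and the change was -0.30 ± 0.18 without control replicate 1.

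None of the tested probe sets of the transcription factors Maf, Meis1 and Meis2 passed at E14.5. Maf had 3808, 5023 and 3461 in E14.5 knockouts and 2423, 3782 and 3727 in controls on its brightest probe set. Knockout replicate 2 was the highest array and control replicate 1 the lowest, and the log2 change was 0.32 ± 0.21, or 0.11 ± 0.21 without control replicate 1. The 5 tested Maf probe sets ranged from 0.32 to 0.44 in log2 change, and on the third (1447849_s_at) the E14.5 knockouts, at 761, 978 and 706, all lay above the controls, at 496, 636 and 696. Meis2 had 829, 1024 and 994 in E14.5 knockouts and 751, 794 and 559 in controls on its second probe set, the one that passed at E16.5. All knockouts lay above all controls there, with a log2 change of 0.44 ± 0.19 (limma adjusted p = 0.579). On its brightest probe set Meis2 had 1284, 1556 and 2005 in E14.5 knockouts and 1890.0, 1082 and 1347 in controls, and the change was 0.18 ± 0.24, or 0.39 ± 0.26 without control replicate 1. Meis1 had 1038, 1268 and 1185 in E14.5 knockouts and 908, 1001 and 1139 in controls, which overlapped, with 0.19 ± 0.14, or 0.12 ± 0.16 without control replicate 1. Nes had 260.0, 213 and 269.8 in E14.5 knockouts and 259.6, 356 and 265 in controls, with -0.22 ± 0.17, and a single control stood above the other arrays.

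Whether the knockout effect differed between the stages was tested directly, and no member passed. In limma 0 of the 7 genes and 0 of the 21 probe sets passed, as did 0.0% of all genes and of all probe sets, while 1 gene and 7 probe sets had an unadjusted p under 0.05. The gene was Pdgfra, whose log2 change at E16.5 minus that at E14.5 was -0.95 ± 0.29 (unadjusted p = 0.00417; limma adjusted p = 0.452), and -0.59 ± 0.19 without E14.5 control replicate 1 (limma adjusted p = 0.732). All 3 Pdgfra probe sets had negative differences, from -1.26 to -0.87. Tcf21 had a difference of -0.55 ± 0.35, Maf -0.25 ± 0.28, Meis2 0.53 ± 0.32, Nes 0.38 ± 0.22, Meis1 -0.082 ± 0.19 and Pdgfrb 0.056 ± 0.23. Without E14.5 control replicate 1 the difference was -0.22 ± 0.31 for Tcf21, -0.036 ± 0.27 for Maf, 0.32 ± 0.32 for Meis2, -0.0056 ± 0.20 for Meis1 and 0.23 ± 0.23 for Pdgfrb, and none passed. A fall of Pdgfra that passed at E16.5 and not at E14.5 is therefore not shown to differ between the stages.

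In control ovaries, Meis1 and Meis2 were lower at E16.5 than at E14.5 on their brightest probe sets, and Nes narrowly passed as higher. In limma 1 gene passed as higher and 2 as lower, in a comparison in which 64.4% of all genes passed, 28.5% as higher and 35.9% as lower. The brightest probe set of Meis2 had 470.4, 617, 382 and 322 in E16.5 controls and 1890.0, 1082 and 1347 in E14.5 controls. All E16.5 controls lay below all E14.5 controls, which gave -1.65 ± 0.23 in log2 units (limma adjusted p = 6.64e-06). Meis1 had 434, 549, 429 and 461 in E16.5 controls and 908, 1001 and 1139 in E14.5 controls, again without overlap, as for 37.4% of all genes in that direction, and -1.09 ± 0.13 (limma adjusted p = 1.67e-06). All 4 Meis2 probe sets passed as lower, with log2 changes of -1.70 to -0.47. Nes had 354, 428, 355 and 390.1 in E16.5 controls and 259.6, 356 and 265 in E14.5 controls, which overlapped, and its rise of 0.37 ± 0.16 (limma adjusted p = 0.0474) did not pass without E14.5 control replicate 1 (0.30 ± 0.18; limma adjusted p = 0.165). Nes lost this call in 12 of 24 alternatives, among them each one that left out a single E16.5 control. Pdgfra (-0.14 ± 0.20), Pdgfrb (-0.30 ± 0.17), Tcf21 (0.17 ± 0.25) and Maf (0.014 ± 0.20) did not pass on their brightest probe sets. Without E14.5 control replicate 1, Pdgfra (-0.50 ± 0.14; limma adjusted p = 0.00704) and Pdgfrb (-0.47 ± 0.17; limma adjusted p = 0.0249) passed as lower, whereas Tcf21 (-0.16 ± 0.23) and Maf (-0.20 ± 0.20) did not pass and had the opposite sign. The median of all genes shifted by -0.087 here, by -0.21 after quantile normalization and by -0.43 after median centring. Among all genes that passed, 44.3% were higher at E16.5 as deposited, 37.6% after quantile normalization and 26.5% after median centring. Meis1 and Meis2 passed as lower under all 3 scalings, whereas Nes had 0.058 after quantile normalization and 0.03 after median centring and did not pass. When that Gapdh measure entered the fit as a covariate, the changes of Meis1 (-1.25 ± 0.59; limma adjusted p = 0.210), Meis2 (-3.01 ± 0.96; limma adjusted p = 0.0755) and Nes (1.47 ± 0.64; limma adjusted p = 0.178) did not pass, and Maf did (2.37 ± 0.64; limma adjusted p = 0.0416).

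**Figure D3:**
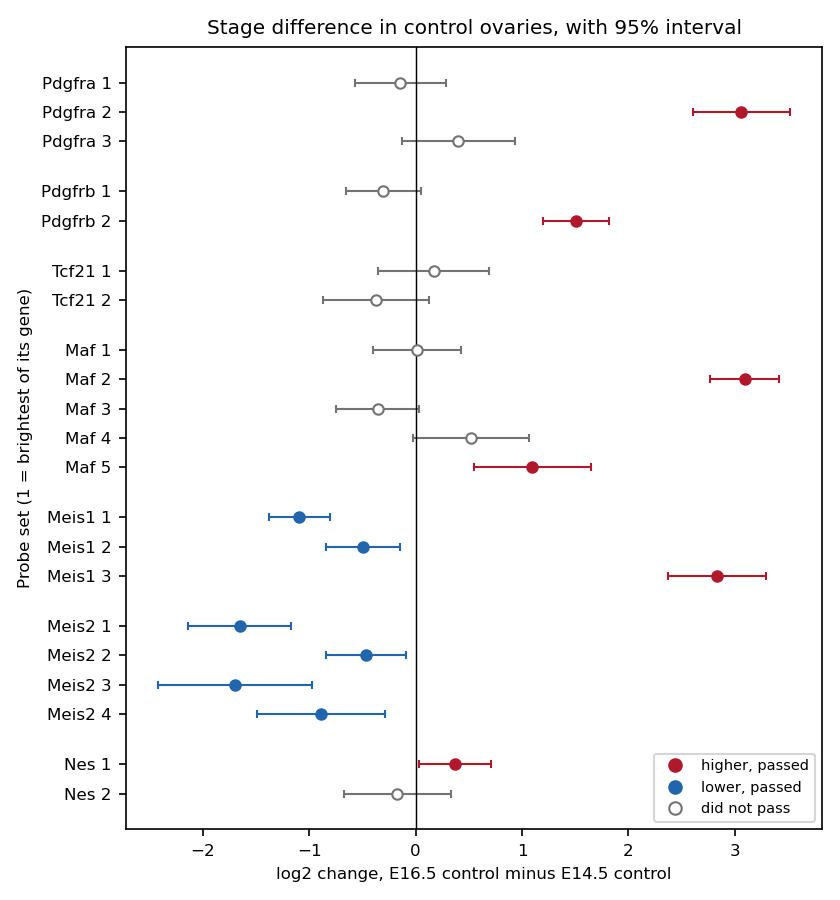
Log2 change between stages in control ovaries (E16.5 minus E14.5, horizontal axis) of each tested probe set; points are estimates, bars are 95% intervals from limma, and filled points passed. Probe sets of 1 gene lie far apart, as for Pdgfra, from -0.14 to 3.06, and for Meis1, from -1.09 to 2.83, while the 4 Meis2 probe sets all lie below 0.

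Other probe sets of the same genes gave other stage differences. Of the 21 probe sets, 6 passed as higher and 6 as lower at E16.5, where 67.0% of all probe sets passed, 35.9% as higher and 31.1% as lower. The second Pdgfra probe set had 908, 962, 992 and 916 in E16.5 controls and 58.0, 137 and 117 in E14.5 controls, or 3.06 ± 0.22 in log2 units (limma adjusted p = 1.47e-09). The second Maf probe set had 1806, 1898, 2006 and 1876 in E16.5 controls and 197, 271 and 168 in E14.5 controls, and 3.09 ± 0.15 (limma adjusted p = 1.77e-11). The dimmest Meis1 probe set had 368, 415, 431 and 341 in E16.5 controls and 44.7, 23.2 and 59.9 in E14.5 controls, and 2.83 ± 0.22. All its E14.5 signals lay under 62.0, so it passed the filter through the E16.5 arrays, where it is high, and had to differ. Counting it, Meis1 was the single member with probe sets that passed in opposite directions, as did 31.9% of the 6143 genes with at least 2 tested probe sets, against 0.0% of them in either knockout comparison. Of those genes, 5693 had any probe set that passed between stages, but just 4 in the knockout comparison at E14.5 and 114 at E16.5. The mean of all Meis1 probe sets passed as higher at E16.5, with 0.42 ± 0.12 (limma adjusted p = 0.00501), but it includes the dimmest one. The other Meis1 probe sets passed as lower, at -1.09 and -0.49. The second Pdgfrb probe set was higher as well, with 1070.2, 949, 829 and 904 in E16.5 controls and 262, 329 and 369 in E14.5 controls and a log2 change of 1.51 ± 0.15. The median span of log2 changes within a gene was 1.42 between stages and 0.27 between knockouts and controls at E16.5. The log2 difference of the 3′ minus the 5′ Gapdh control probe set was 1.75 ± 0.07 in E16.5 controls (SD, n = 4) and -0.29 ± 0.20 in E14.5 controls (SD, n = 3), and the bioB signal was 4136 ± 314 in E16.5 controls and 1246 ± 31.8 in E14.5 controls. The actin control probe sets went the other way between stages. Their 3′ minus 5′ log2 difference was 0.24 ± 0.06 in E16.5 controls and 0.86 ± 0.10 in E14.5 controls (SD). It was 0.15 ± 0.14 in E16.5 knockouts (SD), and no fit used it as a covariate. Stage and these measures of the arrays cannot be told apart. At E16.5 the Gapdh difference was 1.37 ± 0.31 in knockouts and 1.75 ± 0.07 in controls (SD, n = 4 each). With it as a covariate the fall of Pdgfra at E16.5 was 1.37 ± 0.25 on the log2 scale (limma adjusted p = 0.0417).

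Genes that work with the members were given as lists. Of all genes tested, 1.42% passed at E16.5 (0.451% as lower). Of 6 ligands of the PDGF receptors and the proteases that activate them, 0 passed at E16.5, with a median log2 change of 0.082 against 0.053 for all genes. Pdgfb had the largest change of the list, 0.67 ± 0.40 (limma adjusted p = 0.392), followed by Plat, a plasminogen activator that also cleaves PDGF-C, at -0.48 ± 0.15. Of 12 adaptors and enzymes that act at the activated receptors, Shc1, an adaptor that couples receptors to RAS, fell, at -0.49 ± 0.11 (limma adjusted p = 0.0322), and 0 rose. Of these 12, 11 had negative changes, with a median of -0.26 against 0.053 for all genes. Their summed signal, in which the brightest genes weigh most, was 18770 to 25540 in E16.5 knockouts and 26906 to 29701 in controls. At E14.5 none of either list passed. Pdgfc had the largest change of the ligand list at that stage, 0.68 ± 0.16 (limma adjusted p = 0.215).

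Of the PBX, PKNOX, TGIF and MEIS3 genes, the TALE partners and relatives of the MEIS proteins, 7 of 9 were tested and 0 passed at E16.5 (median -0.12), Pknox2 having -0.55 ± 0.15 (limma adjusted p = 0.0797) and Meis3 0.17 ± 0.19. Of the MAF family 3 of 6 were tested and 0 passed (median 0.42), with Mafk at 0.55 ± 0.27 and Maff at 0.42 ± 0.26. Of the partners, relatives and ID inhibitors of TCF21, 13 of 14 were tested and 0 passed (median -0.017). Hand2, a related mesenchymal factor, had -1.16 ± 0.39 (limma adjusted p = 0.134), and Id1, an inhibitor of helix-loop-helix dimers, had 0.74 ± 0.20 (limma adjusted p = 0.0769). Of 7 tested intermediate filament genes other than Nes, the muscle filament gene Des rose by 1.17 ± 0.25 (limma adjusted p = 0.0292), and 0 fell (median 0.33). Of 15 tested genes of fetal gonad interstitium, Wnt5a, a secreted WNT ligand, fell with -1.34 ± 0.20 (limma adjusted p = 0.00442) and 0 rose (median -0.0002). These 15 include the deleted gene Nr2f2, whose brightest probe set did not pass although dimmer ones did. In these 5 lists 0 genes passed at E14.5 in limma.

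**Figure D4:**
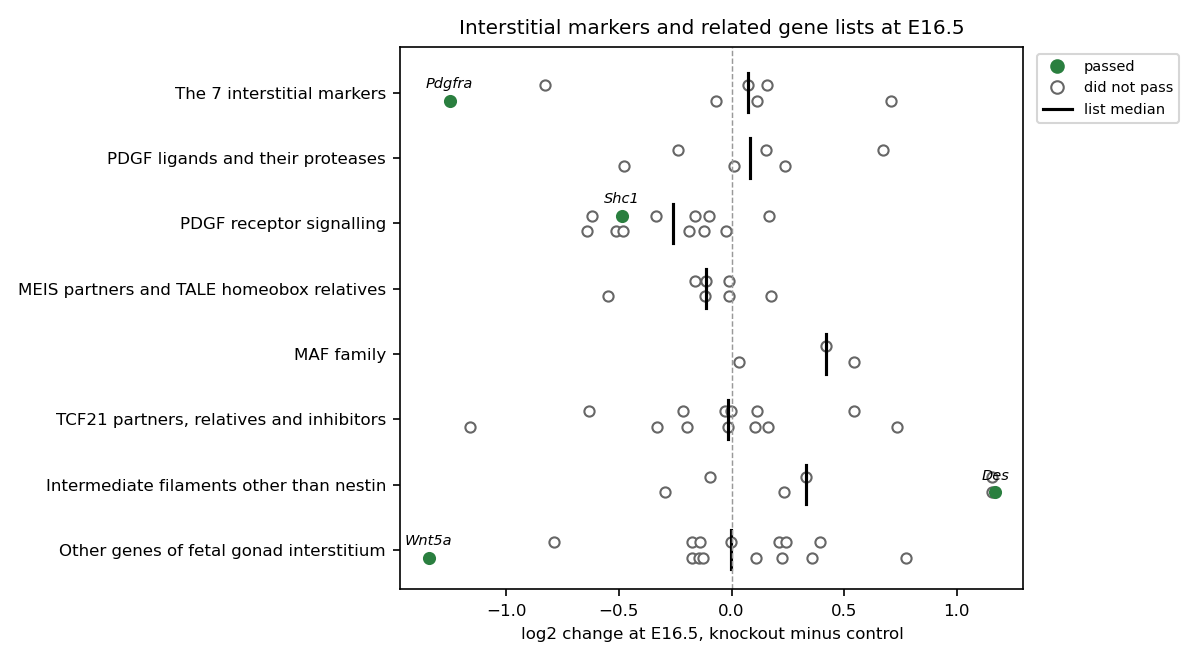
Log2 change at E16.5 (knockout minus control, horizontal axis) of every tested gene in the 7 markers and in 7 related lists, 1 row per list; filled points passed, and vertical bars are list medians. The changes of the 7 markers run from -1.25 to 0.71, and Pdgfra, Shc1, Des and Wnt5a are the filled points.

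Markers of other cell types were summed on the same E16.5 arrays. The brightest genes of a list weigh most in its sum, and 1.42% of all genes passed at this stage (0.451% as lower). The summed signal of 9 pre-granulosa genes was 23832 to 25702 in knockouts and 28971 to 30436 in controls, with 0 of 9 genes passing and a median log2 change of -0.25. That of 6 surface epithelium genes was 9814 to 13256 in knockouts and 7224 to 8597 in controls, and Krt19 (1.24 ± 0.25) and Upk1b (limma adjusted p = 0.0438) rose among the 6. That of 9 macrophage genes was 3143 to 6814 in knockouts and 2896 to 3332 in controls, and of 8 tested genes C1qb rose (0.82 ± 0.20). Of 11 genes of pericytes, which also make PDGFRB, and smooth muscle, 10 were tested and 0 passed (median 0.14), and the sum of the 11 was 6406 to 11347 in knockouts and 6237 to 7378 in controls. Of 3 tested genes of the adrenal cortex, Hao2 (1.49 ± 0.27) and Mc2r (1.46 ± 0.23), the corticotropin receptor, rose, and the list summed to 779.6 to 1109 in knockouts and 315 to 423 in controls, while Cyp11b1, an enzyme that makes corticosterone there, averaged 7.04 ± 3.38 in knockouts and 5.85 ± 3.23 in controls (SD, n = 4 each). Six2, which defines nephron progenitors of the neighbouring kidney, had 1.96 to 33.2 in knockouts and 2.84 to 25.6 in controls, whereas its list of 4 genes summed to 1035 to 1233 in knockouts and 719 to 792 in controls. Of 4 tested steroid synthesis genes Hsd3b1 rose (1.57 ± 0.30) and the sum was 3538 to 6455 in knockouts and 1456 to 2672 in controls, and of 8 endothelial genes Plvap rose (1.18 ± 0.21) and Tek fell (-0.68 ± 0.15). Of 9 germ cell genes (median 0.12), 3 tested mesonephric genes and 2 tested kidney genes, 0 passed. The part of these cell types in the changes of Pdgfra, Tcf21 and Meis2 was not tested.

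For each member, the genes with the most similar pattern over the 14 arrays were sought by the root mean square difference of log2 values after each gene was centred on its mean. Afap1l2 (0.25), Plppr3 (0.26) and Egflam (0.27) lay nearest to Pdgfra, whose own root mean square deviation was 0.63. Emilin3 (0.25), Vdr and Nuak2 lay nearest to Tcf21, and Cdh2 (0.27), Smarca1 and Lypd6 to Meis2. Hnrnpab (0.12), Atl1 and Zfp84 lay nearest to Meis1, Zfp36l1 (0.14), Tbx2 and Tcf7l1 to Pdgfrb, Plpp1 (0.15), Gpatch3 and Mrps27 to Maf, and Atg13 (0.15), Cyth3 and Zbtb6 to Nes. Among the members themselves the closest pair was Pdgfrb and Maf (0.28), followed by Pdgfrb and Tcf21 (0.36), Meis1 and Meis2 (0.38) and Pdgfra and Tcf21 (0.41). The most distant was Meis2 and Nes (1.06). Pdgfrb and Maf had own root mean square deviations of 0.25 and 0.29, so their distance was about as large as their own variation. The distance of Pdgfrb and Tcf21 exceeded the deviation of Pdgfrb, so a small distance here is no sign of a shared pattern. These distances include the stage difference and share the arrays, and they describe the patterns only.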

How the data were processed

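RNA of 14 fetal ovary samples was extracted with a PicoPure kit and amplified with the Affymetrix 3' IVT Express kit, per the labels' protocols. The authors deposited 1 linear intensity per probe set and array. The submitters' processing notes name MAS5 and Affymetrix Expression Console, without versions. Each array had a trimmed mean of 500 when 2% was left out at both ends, which removes global differences in RNA amount. Arrays had median signals of 118 to 137 (E16.5) and 90.3 to 103 (E14.5), and correlations across probe sets were 0.969 to 0.982 within groups. The number of arrays limits the precision, and the labels call the samples biological replicates.

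Leaving out control probe sets, 45037 remained, of which 34945 had a single symbol, 932 several and 9160 none listed. Symbols were checked by gene ID in RefSeq (GRCm38.p6; 34741 matched). Values were taken as log2(signal + 16), which understates changes of dim genes. Probe sets with a mean above the 40th percentile (signal of about 62.0) were tested. A model of 4 groups on all 14 arrays was fitted in R 4.3.3 with limma 3.58.1, using lmFit and trended eBayes, once with the brightest probe set of each gene (12406 of 18193 genes) and once with every probe set (27022). Tests were two-sided with Benjamini-Hochberg adjustment over all features tested and a threshold of 0.05. The fit was tested on simulated data. Named are all members, Nr2f2 and Wt1, the 3 genes nearest in pattern to each member, and up to 3 genes past the threshold of each list, or 2 as values where none passed; other cell type markers were named beyond this rule, after their values were seen. For Wt1 the log2 change was -0.37 ± 0.13 (E16.5) and -0.23 ± 0.15 (E14.5), and neither passed. At E16.5 all its knockout signals (3156 to 3465) lay below all control signals (3986 to 4431), as for 4.22% of all genes. The members, lists and tests were chosen with earlier results of these data known. Alternatives changed the pseudocount, scaling, filter, probe set rule, spread model and covariates, or left out arrays; the within-array comparisons and the probe set tests between stages were added after seeing the data. Within-array comparisons used exact permutation tests (scipy 1.17.1).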

Additional observations from a re-analysis of the deposited data

Results flagged for a closer look

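In groups of 4 arrays, 46 groups of member values were searched for an array far from the others (Dixon's ratio above its 95% critical value), and 2 were found; chance gives about 1 in 20. E16.5 knockout replicate 3 was the highest of its group on the brightest Pdgfra probe set, at 1669, against 1127 to 1194 on the other knockouts and 2735 to 3409 in controls. Without it the log2 change of Pdgfra was -1.38 ± 0.19 (limma adjusted p = 0.00433). E16.5 knockout replicate 2 was the lowest on the third Maf probe set, at 304, against 499 to 532 on the other knockouts and 438 to 490.1 in controls.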

How the results depend on the processing

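At E14.5 and for the difference between stages, 0 members passed under any alternative. At E16.5, where 1 gene passed, 2 passed with the arrays of the stage alone, with the mean of all probe sets and with the replicate number as a block, and 0 without both knockout replicates 1 and 4; leaving out 1 array gave 1 to 2. Pdgfra kept its direction in all 26 alternatives (-1.38 to -1.11) and passed in 25. Tcf21 ranged from -1.14 to -0.62 and passed in 4, and Meis2 from 0.57 to 0.96 and passed in none. Of probe sets at E16.5, 5 passed, 0 with the Gapdh covariate, 0 without both knockout replicates 1 and 4, 3 with the 60th percentile filter and 2 to 6 with 1 array left out: omitting knockout 1, control 2 or control 3 of E16.5 gave 2, and omitting knockout 4, control 1 or control 4 gave 3. The Meis2 probe set lost its call in 11 alternatives, that of Tcf21 in 8 and the dimmest of Pdgfra in 7. Between stages 3 genes passed (Meis1, Meis2 and Nes), 1 with the Gapdh covariate, which was Maf and none of the 3, 6 with the mean of all probe sets and 2 to 4 with 1 array left out. The mean of all probe sets turned Meis1 (0.42), Pdgfra (1.11) and Pdgfrb (0.60), each of which passed as higher at E16.5. The Meis1 mean is positive through its dimmest probe set, which had to differ, while its others passed as lower. The Gapdh covariate turned 1 Meis2 probe set (0.13 ± 1.47). Among all genes, 176 passed at E16.5, against 18 with the Gapdh covariate, 19 without both knockout replicates 1 and 4, 278 after quantile normalization, 293 with the replicate block, and 42 and 497 without knockout replicates 1 and 2. Whether the replicate numbers pair samples cannot be told from so few arrays. Same-numbered arrays had deviations that correlated by -0.0162 to 0.195 (E16.5) and -0.0133 to 0.0282 (E14.5). Differently numbered arrays had -0.124 to 0.0981 (E16.5) and -0.0629 to 0.0577 (E14.5). With the block the brightest Tcf21 probe set passed at E16.5 (limma adjusted p = 0.0233), while the dimmer Tcf21 probe set and the Meis2 probe set lost their calls (limma adjusted p = 0.0574 for both), and the stage comparison could not be fitted. Other causes were not tested.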
